A study of Mus musculus with 6 samples.

Results

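The 10 genes described here carry the main steps of MHC class I antigen presentation. They were taken by symbol from a list chosen with earlier results of these data known: the class I heavy chains H2-K1 and H2-D1, their light chain B2m, the peptide transporter genes Tap1 and Tap2, the loading factor Tapbp, the immunoproteasome subunits Psmb8, Psmb9 and Psmb10, and the class I transactivator Nlrc5. All 10 were found among the 27179 gene IDs of the table, and all 10 passed the filter on low values. They were measured by RNA sequencing in LT-HSC (long-term blood stem cells, which can rebuild all blood lineages), sorted as Lin-Sca-1+c-Kit+CD48-CD150+. Both groups were adult C57BL/6 mice, 8 to 12 weeks old, with both Prdm16 alleles conditional, and both received pIpC, which mimics viral RNA and raises interferon, in 5 injections that ended 5 weeks before the sort. The control group (WT, genotype Prdm16-Mx1-Cko/Cko; +/+) lacked the Mx1-Cre transgene. The other group (Cko, Prdm16-Mx1-Cko/Cko; Tg/+) carried it, so the transgene and the loss of Prdm16 cannot be told apart. The Mx1 promoter responds to interferon in many cell types and is not limited to blood stem cells. For each genotype the marrow of 5 mice was combined and gave 3 technical replicates. The 3 libraries of a group are portions of 1 pool, and p-values measure the spread between portions, not between animals.

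MHC class I molecules show peptides from inside the cell to CD8 T cells and are read by receptors of natural killer cells. Proteasomes cut proteins into peptides, the TAP transporter carries the peptides into the endoplasmic reticulum, and tapasin helps load them onto a heavy chain bound to beta-2-microglobulin. Interferon raises most genes of the route, in part through NLRC5, which acts at a conserved group of promoter boxes (S, X and Y), while NF-kB acts at an upstream enhancer. Nearly all nucleated cells carry class I molecules, blood stem cells included.

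The libraries held 36747729 to 43743795 reads. Prdm16 had 40.3, 50.5 and 31.7 CPM (reads per 1e6 reads of effective library size) in WT replicates 1 to 3 and 8.74, 9.04 and 14.7 CPM in the Cko replicates, so the labelled target was lower in each Cko library. All 13 markers of the LT-HSC list were detected in both groups. Their summed level was 2808 to 2986 CPM in WT and 2839 to 3086 CPM in Cko, and 0 of 13 were called (11 had a positive value, 3 of them at an unadjusted p below 0.05). In 5 of 13 every Cko library was above every WT library, beside 8.52% of all tested genes, and the opposite held in 0 of 13. Several lists of mature cell markers differed more. Neutrophil markers summed to 310.03 to 324 CPM in WT and 1158 to 1361 CPM in Cko (11 of 14 tested called higher), and eosinophil markers to 0.624 to 1.11 and 547 to 651 CPM (6 of 7). B and plasma cell markers summed to 60.8 to 67.7 and 236 to 251 CPM (1 of 7). Macrophage and monocyte markers summed to 18.5 to 39.7 and 90.2 to 116 CPM (1 of 7 called higher, Ly6c2), and basophil and mast cell markers to 385 to 479 and 509 to 577 CPM (2 of 5, Prss34 and Mcpt8). Erythroid markers summed to 46.0 to 50.7 and 63.5 to 78.1 CPM (0 of 6 called, 5 higher at an unadjusted p below 0.05). T and NK cell markers summed to 76.2 to 101 and 94.8 to 122 CPM (0 of 3 called, 2 with a negative value). Endothelial markers summed to 201 to 222 and 256 to 361 CPM (0 of 6 called), and stromal markers to 22.4 to 24.8 and 36.2 to 46.3 CPM (1 of 4 called higher, Cxcl12). Single markers went otherwise, with Prtn3 of the neutrophil list at a log2 fold change of 0.01 and Cd79b of the B cell list at -0.42 (adjusted p = 0.333). Gata2 of the basophil and mast cell list was at 0.06 (adjusted p = 0.867). These single genes made up most of the WT sums of their lists: Prtn3 209 ± 7.07 CPM, Cd79b 61.0 ± 2.86 CPM and Gata2 421 ± 49.0 CPM. In WT 1 of the 15 neutrophil, 2 of the 7 eosinophil and 4 of the 10 B and plasma cell markers had 0 reads in each library, among them Mmp8, Epx and Igkc. All 7 eosinophil markers were below 1 CPM in every WT library, as were the called markers Elane, Ctsg, Prss34, Mcpt8 and Igkc. They passed the filter on low values only through the Cko libraries, so the counts of calls describe these lists and are no test. Over all tested genes 0.407% were called higher. The part of these cells in the results below was not tested.

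Promoter sequences show what 3 members share outside the measured values. They are the genes of the class I molecule itself: H2-K1, H2-D1 and B2m. The promoters are from RefSeq (GRCm38.p6, the assembly of mm10), and each runs from 250 bases before an annotated start to 50 after it. For H2-K1 that start lies inside the outer bounds of the gene given below, and so does the window shown. Capitals mark, in order, the NF-kB-type motif GGGGATTCCC as read from the H2-K1 promoter (in B2m an interferon-response motif, GAAA and again GAAA with 2 bases between), the TGACG core of the X2 box and ATTGG, the Y box, which is the inverted CCAAT motif.
H2-K1, chr17:34000349-34000468, minus strand: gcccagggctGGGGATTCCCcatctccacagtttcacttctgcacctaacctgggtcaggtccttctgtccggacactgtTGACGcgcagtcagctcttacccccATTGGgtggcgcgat
H2-D1, chr17:35262913-35263032, plus strand: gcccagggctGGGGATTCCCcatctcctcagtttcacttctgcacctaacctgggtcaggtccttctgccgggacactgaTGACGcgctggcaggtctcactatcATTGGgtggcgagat
B2m, chr2:122147538-122147648, plus strand: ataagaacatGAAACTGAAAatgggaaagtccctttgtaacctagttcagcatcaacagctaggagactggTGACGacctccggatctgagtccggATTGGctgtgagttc
The H2-K1 and H2-D1 windows are identical at 108 of 120 positions. In all 3 windows 20 bases separate TGACG from ATTGG. This spacing was chosen after the sequences were seen, and read on both strands it is found in 31 of 32851 promoters (0.0944%). Each motif was searched on both strands. GGGGATTCCC is in 0.107% of promoters, the GAAA pair in 3.44%, TGACG in 20.8% and ATTGG in 37.4%, and the last 2 are also counted inside the spaced pair. RefSeq promoters were found for 8 of the 10 members, and Tap2 and Nlrc5, which had none, were not searched. Of the 8 members searched 3 held the spaced pair, 2 held GGGGATTCCC and 1 held the GAAA pair. Only these exact letters were searched, so related forms of the motifs are neither counted nor marked. The search therefore does not show that H2-K1 and H2-D1 lack an interferon-response motif, or that B2m lacks an NF-kB-type motif. A match is a description of the letters and not evidence of binding.

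Each of the 10 members had a lower mean in Cko, by small amounts, and 1 of them, H2-K1, passed the test. Log2 fold changes (Cko minus WT) ran from -0.23 to -0.07 with a median of -0.15. The test was limma on the deposited log2 values over 13014 genes, with genes called at a Benjamini-Hochberg adjusted p below 0.05. It called 0.292% of all genes lower and 0.407% higher in Cko (0.699% in either direction), and 49.5% of all genes had a value below 0. Among the 2544 genes at or above the level of the lowest member, 51.6% had a value below 0 and 0.865% were called lower. Below an unadjusted p of 0.05 and lower were 3 of the 10 members (H2-K1, B2m and Psmb9) and 4.73% of all genes. The median over all genes was 0.003. H2-K1 and B2m were the members whose 2 groups did not overlap, 2 of 10, beside 8.01% of all genes with every Cko library below every WT library and 9.91% of genes at or above the level of the lowest member. Every Cko library was above every WT library for 0 of 10 members and 8.52% of all genes. The members share the same 6 libraries, and the list was not tested as a whole. Because the list was chosen with earlier results of these data known, the counts of members describe it and are no test. In bulk samples fewer cells that carry a transcript and less of it per cell cannot be told apart.

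**Figure D1:**
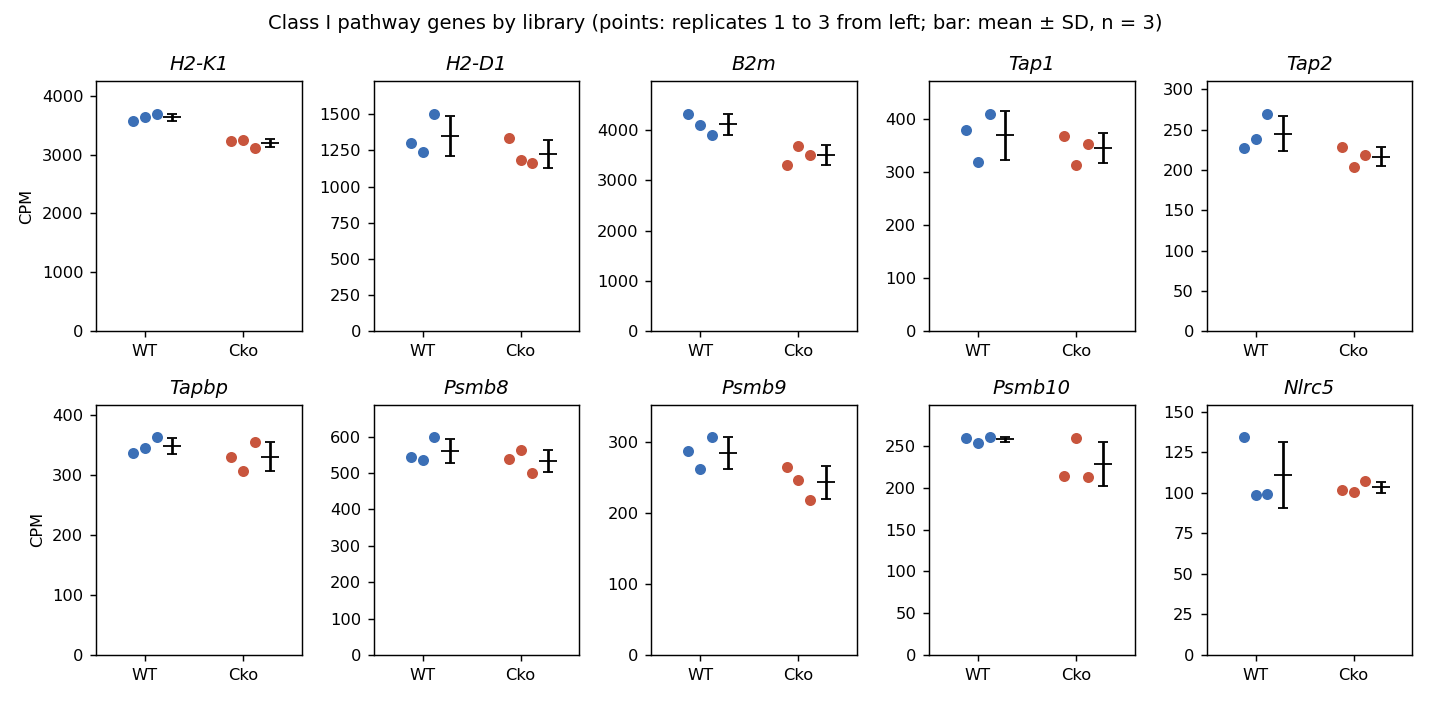
Level of each class I pathway gene in CPM (y axis, from 0) in the 3 WT and 3 Cko libraries, with the mean and SD of each group beside the points. H2-K1 and B2m have every Cko library below every WT library; in the other 8 panels the groups overlap.

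H2-K1 (gene ID 14972, chromosome 17, 33996012 to 34000619, minus strand) encodes the K heavy chain, which binds the peptide. It had 3575, 3631 and 3695 CPM in WT replicates 1 to 3 and 3234, 3242 and 3115 CPM in the Cko replicates. The libraries of each group lay close together and the groups were apart. The means were 3633 ± 59.9 and 3197 ± 71.3 CPM (SD, n = 3 each). This gave a log2 fold change of H2-K1 of -0.18 with SE 0.03 (adjusted p = 0.0341), or a change of -12.0% (95% interval of the fit -16.3 to -7.51). The value was negative in each of 21 alternative fits, but the call held in 3 of them: robust eBayes, voom, and the fit without Cko replicate 2 with the filter repeated. After quantile normalization the log2 fold change of H2-K1 was -0.04 (adjusted p = 0.789), and on leaving out a library it was -0.20 to -0.17 (adjusted p = 0.0412 to 0.198). By mean level H2-K1 had rank 5 among the tested genes. Quantile normalization gives each rank the same value in every library. Whether this is why the value of H2-K1 was smaller was not tested.

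B2m (gene ID 12010, chromosome 2, 122147687 to 122153082, plus strand) encodes beta-2-microglobulin, without which heavy chains are not stable at the cell surface. It had 4328, 4108 and 3910.2 CPM in WT and 3303, 3691 and 3512 CPM in Cko. The lowest WT library was above the highest Cko library. The means were 4116 ± 209 and 3502 ± 194 CPM (SD, n = 3 each), and the log2 fold change of -0.23 (SE 0.05, adjusted p = 0.0779) missed the threshold. B2m passed in 2 of 21 alternative fits, with a log2 fold change of B2m of -0.23 under voom (adjusted p = 0.0412) and of -0.27 without Cko replicate 2 with the filter repeated (adjusted p = 0.0498). After quantile normalization the log2 fold change of B2m was -0.11 (adjusted p = 0.352). By mean level B2m had rank 3, and the cause of the smaller value was not tested for B2m either. B2m shared no stretch of 50 bases with transcripts of another gene.

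H2-D1 (gene ID 14964, chromosome 17, 35263094 to 35267497, plus strand) encodes the D heavy chain. Its levels were 1299.6, 1238 and 1503 CPM in WT and 1338, 1179.8 and 1162 CPM in Cko, so that Cko replicate 1 lay among the WT libraries. On the log2 scale the difference was -0.13 (SE 0.08, adjusted p = 0.594). In its longest protein-coding GENCODE transcript 14.3% of stretches of 50 bases also occur in a transcript of another gene, and in H2-K1 8.79%. At 100 bases these shares were 4.64% and 0%. Read length and the handling of multi-mapping reads were not given in the sources used here, so reads common to class I copies may be split, dropped or counted on 1 copy. Summed over H2-K1, H2-D1 and 9 other heavy chain genes, a set put together after the values were seen, the level was 6369, 6297 and 6709.8 CPM in WT and 5844, 5655 and 5453 CPM in Cko. That sum includes reads assigned among these copies and was lower in each Cko library (means 6459 ± 221 and 5651 ± 196 CPM, SD, n = 3 each), a difference of -12.5%. H2-K1 was the largest part of it (means 3633 and 3197 CPM), so the sum is not independent of the H2-K1 result.

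The peptide transporter genes lie side by side with 2 immunoproteasome genes on chromosome 17. Tap1 (34187556 to 34197225, plus strand) and Tap2 (34204479 to 34216321, plus strand) encode the chains of TAP, which pumps peptides into the endoplasmic reticulum. Tap1 had 379.8, 319.9 and 411 CPM in WT and 369, 313 and 354 CPM in Cko. Tap2 had 228, 238 and 269.7 CPM in WT and 228, 203 and 218 CPM in Cko. For both genes WT replicate 3 was the highest library and the groups overlapped. Neither passed the test, with log2 fold changes of -0.09 (SE 0.10, adjusted p = 0.797) for Tap1 and -0.18 (SE 0.09, adjusted p = 0.552) for Tap2. Without WT replicate 3 the log2 fold change of Tap1 was -0.02 and the log2 fold change of Tap2 -0.11. Tapbp (33919478 to 33929290, plus strand) encodes tapasin, the bridge between TAP and the empty class I molecule. It had 337, 344 and 362 CPM in WT and 329, 306 and 354 CPM in Cko, with overlapping groups and a value of -0.08 on the log2 scale (SE 0.08, adjusted p = 0.775).

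The immunoproteasome genes encode the 3 catalytic subunits that replace the constitutive ones when interferon acts, and that favour cuts giving peptides that fit class I. Psmb8 (chromosome 17, 34198195 to 34201454, plus strand), the beta-5i subunit, had 545, 537 and 598 CPM in WT and 538, 562 and 500.1 CPM in Cko. Psmb9 (chromosome 17, 34182030 to 34187330, minus strand), the beta-1i subunit, had 287, 261 and 306 CPM in WT and 265, 246 and 217 CPM in Cko. The starts of Psmb9 and Tap1 face away from each other at positions 34187330 and 34187556. Psmb10 (chromosome 8, 105935728 to 105938392, minus strand), the beta-2i subunit, had 259.7, 254 and 261 CPM in WT and 214, 259.7 and 213 CPM in Cko. Cko replicate 2 was thus at the WT level for Psmb10, and for Psmb9 a single Cko library, replicate 1, reached into the WT range. On the log2 scale the fold changes were -0.07 (SE 0.07), -0.23 (SE 0.10) and -0.18 (SE 0.09) for Psmb8, Psmb9 and Psmb10, and none passed the test (adjusted p = 0.773, 0.444 and 0.552).

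Each immunosubunit was set against the constitutive subunit it replaces, since a ratio within a library does not depend on its scaling. The constitutive genes had log2 fold changes of 0.04 for Psmb5, -0.08 for Psmb6 and 0.01 for Psmb7 (adjusted p = 0.953, 0.799 and 0.989). The log2 ratio of Psmb10 to Psmb7 was 0.98, 1.05 and 1.28 in WT and 0.82, 0.97 and 0.95 in Cko, with no overlap between groups and a difference of -0.19. That of Psmb9 to Psmb6 was -0.17, -0.23 and 0.09 in WT and 0.00, -0.38 and -0.38 in Cko, overlapping with a difference of -0.15. That of Psmb8 to Psmb5 was 2.75, 2.57 and 2.79 in WT and 2.63, 2.52 and 2.64 in Cko, also overlapping, with a difference of -0.11. The exact two-sided permutation p was 0.1 for Psmb10, 0.5 for Psmb9 and 0.3 for Psmb8 (0.3, 0.5 and 0.45 adjusted over the 3 ratios), and 0.1 is the smallest p that 3 against 3 libraries allow. Of the stretches of 50 bases in Psmb5, 57.1% also occur in transcripts of other genes, its pseudogene among them, so the counts behind its ratio are uncertain.

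**Figure D2:**
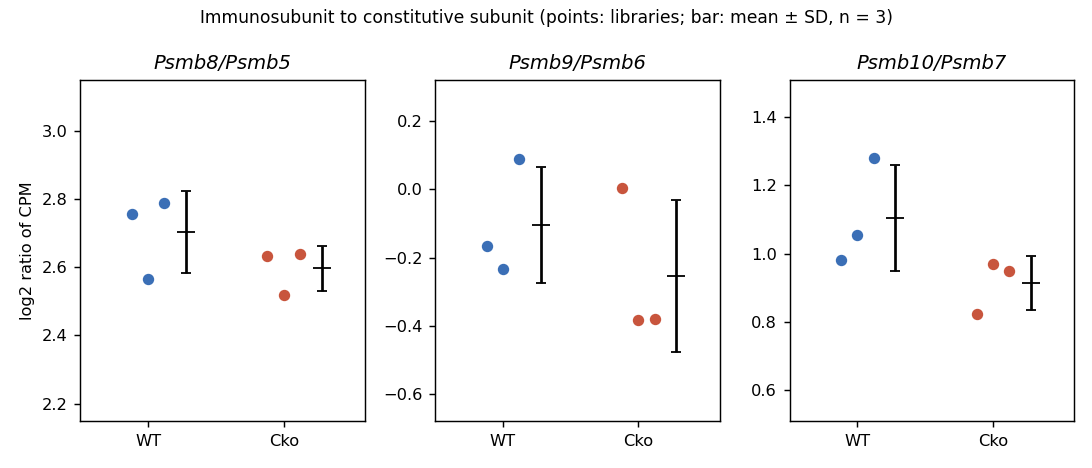
Log2 ratio of CPM (y axis) of each immunosubunit to its constitutive counterpart in the 3 WT and 3 Cko libraries, with mean and SD. For Psmb10 to Psmb7 the Cko libraries (0.82 to 0.97) lie just below the WT libraries (0.98 to 1.28); the groups overlap in the other 2 panels.

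Nlrc5 (gene ID 434341, chromosome 8, 94434335 to 94527272, plus strand) encodes the transactivator that binds the factors on the S, X and Y boxes of class I promoters. It had 134, 98.5 and 99.3 CPM in WT and 102, 101 and 107 CPM in Cko. WT replicate 1 stood above the other 5 libraries, which lay within 98.5 to 107 CPM. The log2 fold change was -0.09 (SE 0.14, adjusted p = 0.874), and without WT replicate 1 it was 0.06.

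Levels between genes were compared per kilobase of exon (CPM per kb, GENCODE M21 exon union). In WT the order of the 10 members was B2m (4786 ± 243 CPM per kb), H2-K1 (2195 ± 36.2), H2-D1 (641 ± 66.0), Psmb8 (344 ± 20.4), Psmb9 (211 ± 16.7), Psmb10 (197 ± 2.58), Tap1 (125 ± 15.6), Tapbp (119.9 ± 4.52), Tap2 (71.2 ± 6.38) and Nlrc5 (13.6 ± 2.50; SD, n = 3 throughout). Psmb9 and Psmb10 did not differ beyond their spread, nor did Tap1 and Tapbp. The other neighbours in the order did not overlap in WT. The constitutive Psmb6 (383 ± 21.3 CPM per kb) was level with Psmb8 within their spread, while Psmb7 (104 ± 10.5) was below all 3 immunosubunits in these cells. Psmb5 was at 95.7 ± 5.54 CPM per kb, but it was not placed in the order because of the sequence it shares with other genes. The lowest read number of a member was 3631, for Nlrc5, whose counting error was 1.66% of the value. For every member the counting error at its lowest read number (0.286% to 1.66%) was smaller than the SD between libraries in both groups (1.31% to 18.4% of the mean). For Psmb10 in WT the figures were close (1.12% and 1.31%). These are counting errors alone, as PCR copies of a molecule could not be told apart.

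**Figure D3:**
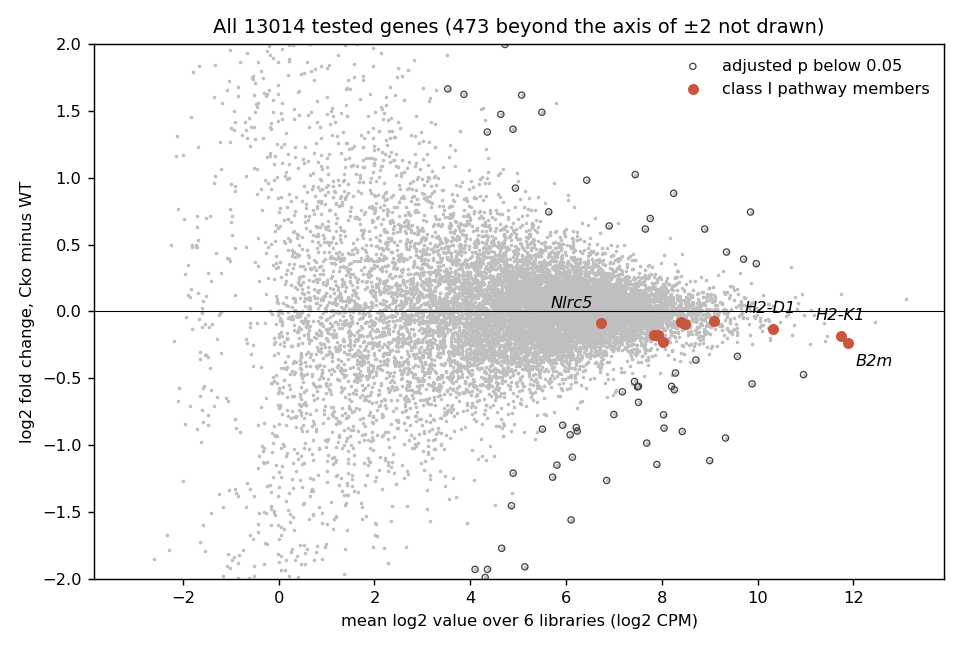
Log2 fold change (y axis) against mean log2 value over the 6 libraries (x axis) for all 13014 tested genes in grey, genes with adjusted p below 0.05 ringed and the 10 members in red; 473 genes beyond ±2 are not drawn. The members sit just below 0, from -0.23 to -0.07, and H2-K1 and B2m lie at the right end of the axis.

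Other genes of the class I route were counted by list, and the lists were not tested as a whole. Of 15 tested heavy chains and class I-like genes beyond H2-K1 and H2-D1, 8 had a negative and 7 a positive value (median -0.03). By limma or by voom 0 were called, and 3 were lower at an unadjusted p below 0.05. Those 3 were H2-T23, H2-Q7 and H2-Q6. Class I-like genes off chromosome 17 gave most of the positive values: Mr1 (0.15), Cd1d1 (0.10), Fcgrt (0.25), Hfe (0.32) and Procr (0.12), also in the LT-HSC marker list. Cd1d2, also of that kind, had -0.81. Among the tested H2 genes of the list, H2-T10 (0.24) and H2-T24 (0.20) were positive and the rest negative. H2-T23 (Qa-1), whose product is read by the CD94/NKG2A receptor, had 567, 586 and 576 CPM in WT and 461, 493 and 476 CPM in Cko. H2-Q7, which encodes Qa-2, had 444, 425 and 439 CPM in WT and 375, 343 and 295 CPM in Cko. Their log2 fold changes were -0.27 (SE 0.06, adjusted p = 0.0868) and -0.37 (SE 0.09, adjusted p = 0.137). H2-Q6, a close copy of H2-Q7 in the same cluster, had a log2 fold change of -0.25 (adjusted p = 0.382). In 5 of the 15 genes (H2-T23, H2-Q7, H2-Q6, H2-Q4 and Cd1d2) every Cko library was below every WT library, beside 8.01% of all genes, and the opposite held in 0 of 15. Between 28.8% (H2-T23) and 34.9% (H2-Q7) of the 50-base stretches of these 3 genes also occur in other genes. The promoters of H2-Q6 and H2-Q7 also hold GGGGATTCCC, and neither holds the spaced pair. Of the 31 promoters with the spaced TGACG and ATTGG pair, 1 was that of another heavy chain in the list, H2-M3, which presents formylated peptides and had a value of -0.22 on the log2 scale (adjusted p = 0.609).

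Helpers of peptide loading showed a median of 0.01 (6 of 11 positive), with 1 called higher and 0 called lower. In 3 of 11 (Hspa5, Canx and Erap1) every Cko library was above every WT library, beside 8.52% of all genes. The opposite held in 2 of 11, beside 8.01% of all genes. Hspa5, the chaperone BiP, rose in Cko (0.36, SE 0.05, adjusted p = 0.00777, from 889 ± 36.4 to 1138 ± 13.7 CPM), and the call was lost with no filter, without the trend, without WT replicate 2 and, with the genes of all 6 libraries kept, without Cko replicate 3 (adjusted p up to 0.346). Tapbpl, a tapasin relative, was the gene lower at an unadjusted p below 0.05, named after its values were seen (-0.36, adjusted p = 0.378). Among the proteasome activator and assembly genes (5 of 9 positive, median 0.07) 0 were called by limma or voom and 1 was lower at an unadjusted p below 0.05. That gene was Psme1, the PA28 alpha subunit, which caps proteasomes and is induced by interferon, with 555, 515 and 513 CPM in WT and 478, 488 and 448 CPM in Cko (log2 fold change -0.16, SE 0.07, adjusted p = 0.419). Psme2, the PA28 beta subunit of the same cap, went the other way, with 220, 203 and 206 CPM in WT and 216, 244 and 204 CPM in Cko. Its groups overlapped (log2 fold change 0.07, SE 0.09, adjusted p = 0.833). Psme3, which encodes the nuclear PA28 gamma, had 0.12 (adjusted p = 0.609) and Psmg1, an assembly chaperone, -0.17 (adjusted p = 0.660). Of 11 other subunits of the 20S core 8 were positive (median 0.04), and 0 were called by either tool or passed an unadjusted p of 0.05. Their values ran from -0.05 to 0.11, with Psma2 at 0.11, Psmb3 at 0.10 and Psma5 at 0.06 (adjusted p = 0.642, 0.775 and 0.854). Of 10 cytosolic peptidases, which trim or destroy proteasome products, 8 were positive (median 0.08), 0 were called by either tool and 1 was higher at an unadjusted p below 0.05. That was Lap3, leucine aminopeptidase, at 0.27 (SE 0.11, adjusted p = 0.421), and Tpp2, tripeptidyl peptidase, had 0.24 (adjusted p = 0.510) and Ide, the insulin-degrading enzyme, -0.19 (adjusted p = 0.597). In 2 of the 10 peptidases every Cko library was above every WT library, beside 8.52% of all genes, and the opposite held in 0 of 10.

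Of 19 regulators of class I transcription 1 was called, higher in Cko, and 11 had a negative value (median -0.03). The called gene was Irf8, an interferon regulatory factor of myeloid and lymphoid cells, with 5.59, 2.03 and 3.88 CPM in WT and 32.8, 20.7 and 14.0 CPM in Cko (log2 fold change 2.58, SE 0.44, adjusted p = 0.0314). Its call was lost with voom, without the trend, with no filter and on leaving out any library other than WT replicate 1 (adjusted p up to 0.198; without Cko replicate 3 only when the genes of all 6 libraries were kept). In the same 3 libraries the summed neutrophil, eosinophil, B cell and monocyte markers given above were higher, and their part in the Irf8 result was not tested. Irf1, an interferon-induced activator of class I genes, was the regulator lower at an unadjusted p below 0.05, also named after its values were seen, with 218, 226 and 228 CPM in WT and 166, 196 and 184 CPM in Cko (-0.30, SE 0.09, adjusted p = 0.264). Of the interferon receptor and kinase genes 6 of 7 had a negative value (median -0.17), and 0 were called or passed an unadjusted p of 0.05. Jak1, a kinase of both interferon receptors, had -0.17 (adjusted p = 0.488), Ifnar2, a chain of the type I receptor, -0.21 (adjusted p = 0.552) and Jak2 -0.23 (adjusted p = 0.593). Voom called 0 of these 7.

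**Figure D4:**
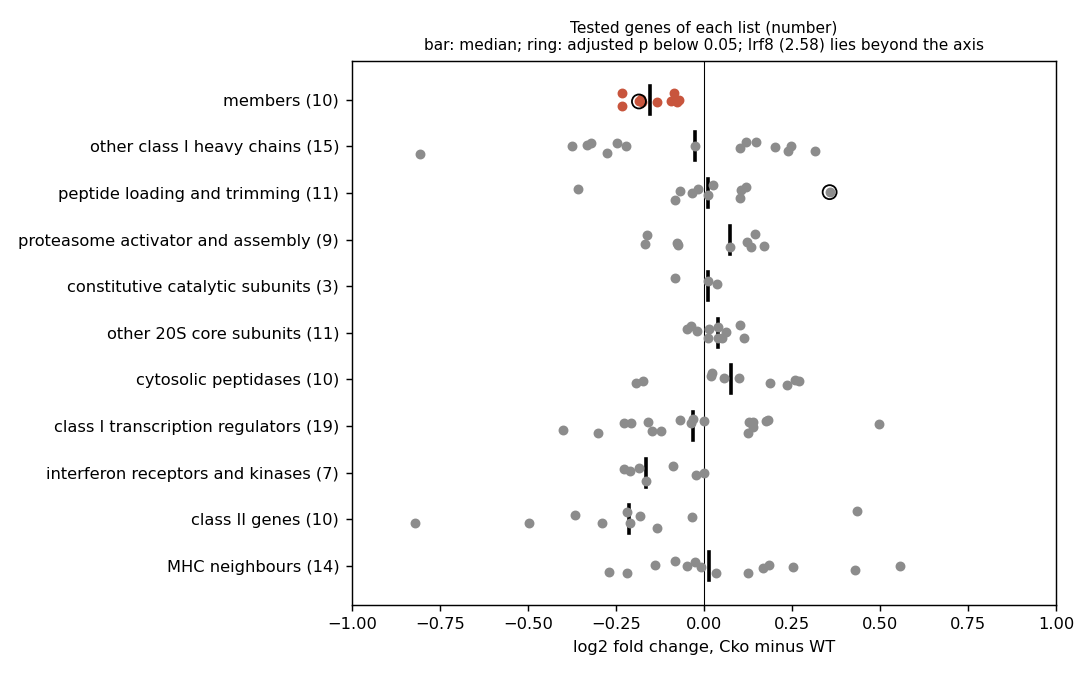
Log2 fold change (x axis) of the tested genes of each list (rows, number tested in brackets), with the median as a bar and genes with adjusted p below 0.05 ringed. Irf8 at 2.58 lies beyond the axis, and the list of receptors and stress ligands is not drawn. All 10 members lie below 0, while 8 of 11 other 20S core subunits and 8 of 10 cytosolic peptidases lie above it.

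MHC class II genes, whose products present peptides to CD4 T cells, lie in part on both sides of the block of Psmb9, Tap1, Psmb8 and Tap2 on chromosome 17. Of 10 tested 9 had a negative value (median -0.21), 0 were called by limma or voom and 3 were lower at an unadjusted p below 0.05. H2-Aa, a class II alpha chain, had 236, 228 and 226 CPM in WT and 183, 200.1 and 155 CPM in Cko (log2 fold change -0.37, SE 0.10, adjusted p = 0.232). Ciita, the class II transactivator and a relative of Nlrc5, had 11.1, 11.9 and 10.5 CPM in WT and 5.09, 7.20 and 6.82 CPM in Cko (-0.82, SE 0.30, adjusted p = 0.363), and Cd74, the invariant chain, had -0.21 (adjusted p = 0.419). In these 3 of 10 genes every Cko library was below every WT library, beside 8.01% of all genes. Summed dendritic cell markers were 125 to 144 CPM in WT and 147 to 192 CPM in Cko. Of 5 tested in this list 4 had a positive value and 0 were called. Most of each sum came from Bst2 (97.7 ± 8.20 CPM in WT and 106 ± 15.0 in Cko) and Flt3 (29.9 ± 2.71 and 50.8 ± 7.15). Flt3 had a log2 fold change of 0.76 (adjusted p = 0.0985), while Itgax had at most 0.14 CPM in any library. Of 14 genes of other routes that lie in or next to the MHC on chromosome 17, 7 were positive and 7 negative (median 0.01, 0 called by either tool, 1 higher at an unadjusted p below 0.05). The 3 with the smallest p were Rxrb, a retinoid X receptor (0.43, adjusted p = 0.467), Daxx, a histone chaperone (0.56, adjusted p = 0.559), and Slc39a7, a zinc transporter (0.17, adjusted p = 0.609).

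Genes outside the lists were ranked by the Pearson correlation of their log2 values, over the 6 libraries, with the mean centred profile of the 10 members. The profile was 0.09, 0.00 and 0.13 in WT replicates 1 to 3 and -0.05, -0.08 and -0.10 in the Cko replicates. The 5 most alike, of genes at or above the median level, were 2610035D17Rik (r = 0.981), Tgtp2, an interferon-induced GTPase (0.978), Gabarapl1, an autophagy protein (0.974), Slc48a1, a haem transporter (0.972), and Cirbp, a cold-induced RNA-binding protein (0.966). With 6 libraries and 13014 genes such values describe these libraries and carry no test. Reads of Tgtp2 may be shared with its neighbouring copy Tgtp1.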

How the data were processed

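The authors deposited 1 table of log2 values, per library, for 27179 NCBI gene IDs. HISAT2, featureCounts, FastQC, limma and mm10 are named, per the submitters' processing notes. Versions, strand setting and multi-mapping rules were not given in the sources used here. Each deposited log2 value is that of reads plus 0.5, per 1e6 of effective library size. Undoing this gave whole reads for 100% of values (tolerance 0.01, largest distance 0.0011), and CPM here are those reads over the library's effective size.

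Symbols and coordinates came from RefSeq GRCm38.p6 (25275 IDs matched, 1904 not). The 13014 genes reaching 1 CPM in 3 or more of the 6 libraries went into a limma fit (version 3.58.1, R 4.3.3; eBayes with trend, no block), adjusted by Benjamini-Hochberg and called below 0.05. Ratios were tested by exact permutation (scipy 1.17.1). Figures used matplotlib 3.10.9. The procedure was tested on simulated data. Library pairs differed by more than sampling noise (chi-square per degree of freedom 38.9 to 53.5 within groups and 54.0 to 86.1 between).

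The members and lists were chosen with earlier results of these data known. Named were all members; of each related list the called genes or else the 3 with the smallest adjusted p, and the constitutive subunits; and the 5 genes of most similar pattern. H2-M3, H2-Q4, Cd1d2, Irf1, Tapbpl, Prtn3, Cd79b, the promoter motifs and the heavy chain sum were chosen after their values were seen. So were H2-T10, H2-T24, Mr1, Cd1d1, Fcgrt, Hfe, Procr and the markers Gata2, Elane, Ctsg, Cxcl12, Bst2, Flt3 and Itgax. Of the listed symbols, H2-Q5, H2-Q8, H2-Q9, H2-T9, H2-L and Hbb-bt were not matched. Alternatives changed the filter (none, or 5 CPM), the scaling (median centring or quantile), the fit (without trend, robust, blocked by replicate number) and the values (log2(CPM + 1), or voom on recovered reads). Each library was also left out, both with the filter repeated and with the genes of all 6 kept.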

Additional observations from a re-analysis of the deposited data

How the results depend on the processing

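All 10 members kept a negative value in every alternative except Nlrc5 without WT replicate 1. The number of members called lower was 0 with no filter, with a filter of 5 CPM, with median centring, with quantile normalization, without the trend, with log2(CPM + 1) and with the replicate block, and 2 with voom. The log2 fold change of H2-K1 and its adjusted p were -0.18 and 0.869 with no filter, -0.18 and 0.0577 with a filter of 5 CPM, -0.19 and 0.0700 with median centring, -0.040 and 0.789 with quantile normalization, -0.18 and 0.598 without the trend, -0.18 and 0.0580 with log2(CPM + 1), and -0.18 and 0.138 with the replicate block; the cause was not tested. B2m was called with voom (-0.23), and with quantile normalization the log2 fold change of B2m was -0.111. The called peptide loading gene (Hspa5) was lost with no filter and without the trend (0 called), and the called regulator (Irf8) with no filter, without the trend and with voom (0 called). The log2 fold change of Psmb7 reversed with quantile normalization (-0.00098). On leaving out 1 library, 0 to 2 members were called, with a log2 fold change of H2-K1 of -0.196 to -0.166 (-0.173 without WT replicate 3), a log2 fold change of B2m of -0.272 to -0.192 and a log2 fold change of Nlrc5 of -0.162 to 0.0611, above 0 without WT replicate 1; peptide loading genes and regulators each had 0 to 1 called. Over the same fits the log2 fold change of H2-D1 ran from -0.197 (without Cko replicate 1) to -0.0511 (without WT replicate 3), and the log2 fold change of Tap1 from -0.196 (without WT replicate 2) to -0.0158 (without WT replicate 3). The log2 fold change of Tap2 ran from -0.228 (without WT replicate 1) to -0.106 (without WT replicate 3), and the log2 fold change of Tapbp from -0.131 (without Cko replicate 3) to -0.0246 (without Cko replicate 2). In turn the log2 fold change of Psmb8 ran from -0.109 (without Cko replicate 2) to -0.0223 (without WT replicate 3), the log2 fold change of Psmb9 from -0.297 (without Cko replicate 1) to -0.156 (without Cko replicate 3) and the log2 fold change of Psmb10 from -0.274 (without Cko replicate 2) to -0.130 (without Cko replicate 3). The log2 fold change of Psmb5 was -0.0416 (without Cko replicate 2) to 0.103, and -0.00854 without WT replicate 1. In the same fits the log2 fold change of Psmb7 was -0.0704 (without WT replicate 3) to 0.0779, and -0.0564 without Cko replicate 2. Likewise the log2 fold change of Ulbp1 was -0.0626 (without WT replicate 1) to 1.39. Same-numbered libraries did not deviate together (correlations -0.01, -0.02 and 0.02), so the replicate block used a number that pairs nothing; with it 44 genes were called higher and 23 lower, against 53 and 38 without. The ratios of immunosubunits to constitutive subunits kept their sign in every setting run for them, and their replicate block differences were -0.11, -0.15 and -0.19.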

Other observations

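Receptors, some of which bind class I molecules, and stress ligands of natural killer cells formed a list of 9 genes. Of these 3 passed the filter on low values and 2 (H60c and Klra1) had 0 reads in all 6 libraries. Being in the list does not mean that a receptor binds class I molecules. The 3 tested genes had positive values, 0 were called by limma or voom, and 2 were higher at an unadjusted p below 0.05. Pirb, an inhibitory receptor for class I found on B and myeloid cells, had 1.19, 1.46 and 1.24 CPM in WT and 3.44, 5.52 and 7.32 CPM in Cko (log2 fold change 1.99, SE 0.54, adjusted p = 0.202). Lilrb4a, a related inhibitory receptor of myeloid and mast cells, had 2.70, 0.841 and 1.61 CPM in WT and 6.57, 4.45 and 8.15 CPM in Cko (2.00, SE 0.57, adjusted p = 0.235). For both genes every Cko library was above every WT library, as is the case for 8.52% of tested genes. The stress ligand Ulbp1 had 0.594, 4.53 and 3.78 CPM in WT and 3.30, 3.10 and 6.09 CPM in Cko, with overlapping groups (adjusted p = 0.740). Summed neutrophil markers and summed macrophage and monocyte markers were higher in the same Cko libraries, and their part in these values was not tested.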
